A study of Mus musculus with 13 samples.

Results

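The MHC class I presentation machinery was followed as 10 genes, chosen by name and read from every row whose Ensembl identifier matched one of them in GENCODE M21. All 10 were present once in both count tables, which list 49315 gene identifiers. They were measured by bulk RNA sequencing in 3 groups of 3 libraries, made from whole lymph nodes that drain a tumour (tdLN) or from the tumour itself. The first group held tdLN of Foxp3ΔJag1 mice, labelled Foxp3creERT2;Jag1fl. In these mice a tamoxifen-inducible Cre (Foxp3eGFP-Cre-ERT2) is driven by Foxp3, the gene that marks regulatory T cells, and both copies of Jag1, a Notch ligand, are floxed in the design text. The second and the third group were tumours and tdLN of Foxp3Ctrl mice. These controls carry the genotype WT in the sample labels and one floxed copy of Jag1 with the same Cre in the design text, a difference that could not be settled. All mice were females given tamoxifen 5 times (0.1 mg/g) when 6 to 8 weeks old. After 9 days without it, and when no older than 11 weeks, they received an intradermal graft of 200000 B16F10 cells, a mouse melanoma line, in matrigel. Foxp3ΔJag1 tumours were not analysed here. Each library name carries its own mouse code, and the control tumour and control node of one replicate number share a code.

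MHC class I molecules display short peptides from inside the cell on its surface, where CD8 T cells and natural killer (NK) cells read them. The peptides are cut by proteasomes, in which interferon-induced subunits can replace constitutive ones, then pumped into the endoplasmic reticulum by the TAP transporter and loaded with the help of tapasin onto a heavy chain paired with beta-2 microglobulin. Lymphocytes carry much class I, and B16F10 cells are known for low surface class I that interferon gamma can raise. Among the 10 genes, H2-K1 and H2-D1 encode the classical heavy chains and B2m their shared light chain. Tap1 and Tap2 encode the transporter, Tapbp encodes tapasin, and Psmb8, Psmb9 and Psmb10 encode the catalytic subunits of the immunoproteasome. Nlrc5 encodes the transactivator of class I genes.

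On GRCm38, 7 of the genes lie in the MHC of chromosome 17, namely Tapbp (33915899 to 33929292), H2-K1 (33996017 to 34000347), Psmb9 (34181987 to 34187764), Tap1 (34187553 to 34197225), Psmb8 (34197721 to 34201454), Tap2 (34203527 to 34216321) and H2-D1 (35262730 to 35267499). Psmb10 (105935735 to 105938444) and Nlrc5 (94434356 to 94527272) are on chromosome 8 and B2m (122147686 to 122153083) is on chromosome 2. RefSeq promoter windows, which run from 250 bases before a start site to 50 after it, were found on GRCm38.p6 for 8 members, the others being Tap2 and Nlrc5. The stretches below show the promoters of the heavy chains and B2m, whose transcripts make 1 protein complex, and the stretch between Tap1 and Psmb9. H2-K1 is shown at chr17:34000334-34000533 (minus strand), H2-D1 at chr17:35262894-35263093, B2m at chr2:122147487-122147686 and Tap1 at chr17:34187331-34187555 (all plus strand), each ending at the base before the RefSeq start site. Capitals mark TGACG, the core that CREB and ATF factors bind, CCAAT or its reverse ATTGG, bound by NF-Y, the kappaB form (GGG, any 2 bases, TTCCC) and the interferon response form (GAAA, any 2 bases, GAAA), all searched on both strands; none of these matches overlapped another in the member windows.
H2-K1: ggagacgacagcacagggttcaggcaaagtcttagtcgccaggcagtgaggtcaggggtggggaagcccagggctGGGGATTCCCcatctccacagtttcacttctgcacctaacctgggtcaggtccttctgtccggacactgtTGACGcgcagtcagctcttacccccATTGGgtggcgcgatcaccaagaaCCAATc
H2-D1: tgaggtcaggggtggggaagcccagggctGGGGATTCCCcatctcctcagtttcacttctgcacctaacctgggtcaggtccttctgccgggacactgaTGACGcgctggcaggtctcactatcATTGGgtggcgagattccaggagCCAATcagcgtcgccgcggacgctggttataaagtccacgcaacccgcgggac
B2m: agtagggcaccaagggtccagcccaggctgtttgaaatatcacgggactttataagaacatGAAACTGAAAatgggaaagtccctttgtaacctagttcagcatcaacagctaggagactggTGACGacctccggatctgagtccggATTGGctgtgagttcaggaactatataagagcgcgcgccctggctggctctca
Tap1: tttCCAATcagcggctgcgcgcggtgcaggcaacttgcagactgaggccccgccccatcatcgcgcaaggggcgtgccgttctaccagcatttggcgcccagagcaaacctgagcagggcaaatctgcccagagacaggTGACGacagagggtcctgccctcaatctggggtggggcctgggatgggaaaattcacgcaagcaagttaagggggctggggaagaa

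The 3 genes of the complex shared an arrangement. In H2-K1, H2-D1 and B2m, TGACG was followed by ATTGG on the same strand, with 25 bases from first letter to first letter. TGACG began 55 bases before the start site in H2-K1 (position -55), at -101 in H2-D1 and at -78 in B2m. This spacing occurred in 3 of the 8 member windows and in 19 of 32851 windows in the table (0.0578%). On either strand it occurred in 31 windows of 27 genes (0.0944% of windows), which also include the non-classical heavy chain gene H2-M3. Between the motifs, 13 of 20 bases were identical in H2-K1 and H2-D1, 3 of 20 in H2-K1 and B2m, and 2 of 20 in H2-D1 and B2m. The heavy chain promoters also held the kappaB form, starting 70 bases before TGACG in both genes, a form found in 1.75% of all windows. B2m had no match to this exact form in its window and held the interferon response form at -139, which was found in 3.44% of all windows. Only these exact letters were searched. Sites with other letters would be missed, so absence of a match in B2m or in the heavy chains does not show absence of a site. TGACG alone was in 5 of 8 member windows and 20.8% of all windows, and CCAAT in 6 of 8 and 37.4%. The start sites of Tap1 and Psmb9, on opposite strands, were 226 bases apart in RefSeq, and their windows shared 275 bases. The TGACG at -86 of Tap1 and at -144 of Psmb9 is therefore 1 and the same. So is the CCAAT at -222 of Tap1 and at -8 of Psmb9. Each of these shared matches enters the counts of member windows for both genes. H2-K1 has a second RefSeq window shifted by 14 bases. These matches describe letters only and were not tested for binding.

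The libraries held between 32117478 and 44540888 counts, and depth did not limit any member. Values are CPM, a gene's count scaled to each library's total, or TPM, which also divides by the exon length of the principal transcript. The tissues matched their labels. All 7 melanoma markers were called higher in tumours than in control nodes by edgeR, with summed levels of 17648 to 23066 CPM in Foxp3Ctrl tumours, 13.4 to 17.1 CPM in Foxp3ΔJag1 nodes and 10.8 to 36.5 CPM in Foxp3Ctrl nodes. At least 1 of the defining markers Mlana, Tyrp1 and Dct was at 0 in 3 of 6 nodes. All 6 leukocyte markers were called lower in tumours, with sums of 263 to 458 CPM in Foxp3Ctrl tumours, 5026 to 5285 CPM in Foxp3ΔJag1 nodes and 4810 to 5328 CPM in Foxp3Ctrl nodes, and none was at 0 in any library. B cell markers summed to 2.32 to 4.07 CPM in Foxp3Ctrl tumours and to 3421 to 3875 CPM in Foxp3Ctrl nodes. Tumour replicate 1 stood apart from the other two tumours for most members, as described below. The genotype check by Jag1 gave 27.8, 20.7 and 23.8 CPM in Foxp3ΔJag1 nodes, against 22, 23.2 and 24.4 CPM in Foxp3Ctrl nodes (log2 fold change 0.03 ± 0.11 SE, edgeR adjusted p = 0.984). Foxp3 had a log2 fold change of 0.28 ± 0.18 (SE, edgeR adjusted p = 0.953). The deletion was therefore not detectable in whole nodes, in which Foxp3-expressing cells are one part and counts are summed over the whole gene.

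Per length, the class I complex stood well above the genes that supply it. In Foxp3ΔJag1 nodes B2m averaged 4845 ± 204 TPM, H2-K1 4565 ± 297 TPM and H2-D1 2875 ± 126 TPM. In Foxp3Ctrl tumours B2m averaged 5170 ± 723 TPM, H2-D1 1838 ± 123 TPM and H2-K1 1773 ± 111 TPM. In Foxp3Ctrl nodes the averages were 4836 ± 137 TPM for B2m, 4197 ± 144 TPM for H2-K1 and 2654 ± 86.9 TPM for H2-D1 (SD, n = 3 in each group). The ranges of B2m and H2-K1 overlapped in Foxp3ΔJag1 nodes and those of H2-D1 and H2-K1 in tumours, while the other neighbours among these genes stood apart. The next genes in control nodes were Psmb8 at 415 ± 3.64 TPM, Tapbp at 332 ± 14.5 TPM, Tap1 at 298 ± 21.8 TPM and Psmb9 at 289 ± 31.3 TPM, and the ranges of Tapbp and Tap1, and of Tap1 and Psmb9, overlapped. Psmb10 followed at 195 ± 13.5 TPM, Tap2 at 159 ± 13.7 TPM and Nlrc5, the regulator, was lowest at 71.7 ± 18.8 TPM. In tumours Psmb10 came next after the complex, at 324 ± 133 TPM, and from there down to Nlrc5 at 51.7 ± 17.7 TPM every neighbour overlapped the next. With the length of all annotated exons in place of the principal transcript, Tapbp stood above Psmb8 in all 3 groups, Psmb9 came next to last, and the ranges of H2-K1 and H2-D1 overlapped in Foxp3ΔJag1 nodes and stood apart in tumours. With that length, B2m averaged 7120 TPM in Foxp3Ctrl nodes, against 3405 TPM for H2-K1 and 3183 TPM for H2-D1. H2-K1 and H2-D1 resemble each other and the other H2 genes, so their split is uncertain if reads matched more than 1 gene.

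The first comparison asked whether class I genes differ in draining nodes when Jag1 is deleted in Foxp3-expressing cells. None of the 10 members was called, in a comparison where edgeR called 7 of 18440 genes (0.038%). At an unadjusted p under 0.05 there were also 0 of 10 members with edgeR, DESeq2 or limma-voom, against 3.15% of all genes with edgeR. The members' log2 fold changes lay between -0.04 and 0.24, with a median of 0.08, against a median of -0.0045 over all genes tested. Of the 10 members, 8 lay above 0, as did 48.8% of all genes.

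**Figure D1:**
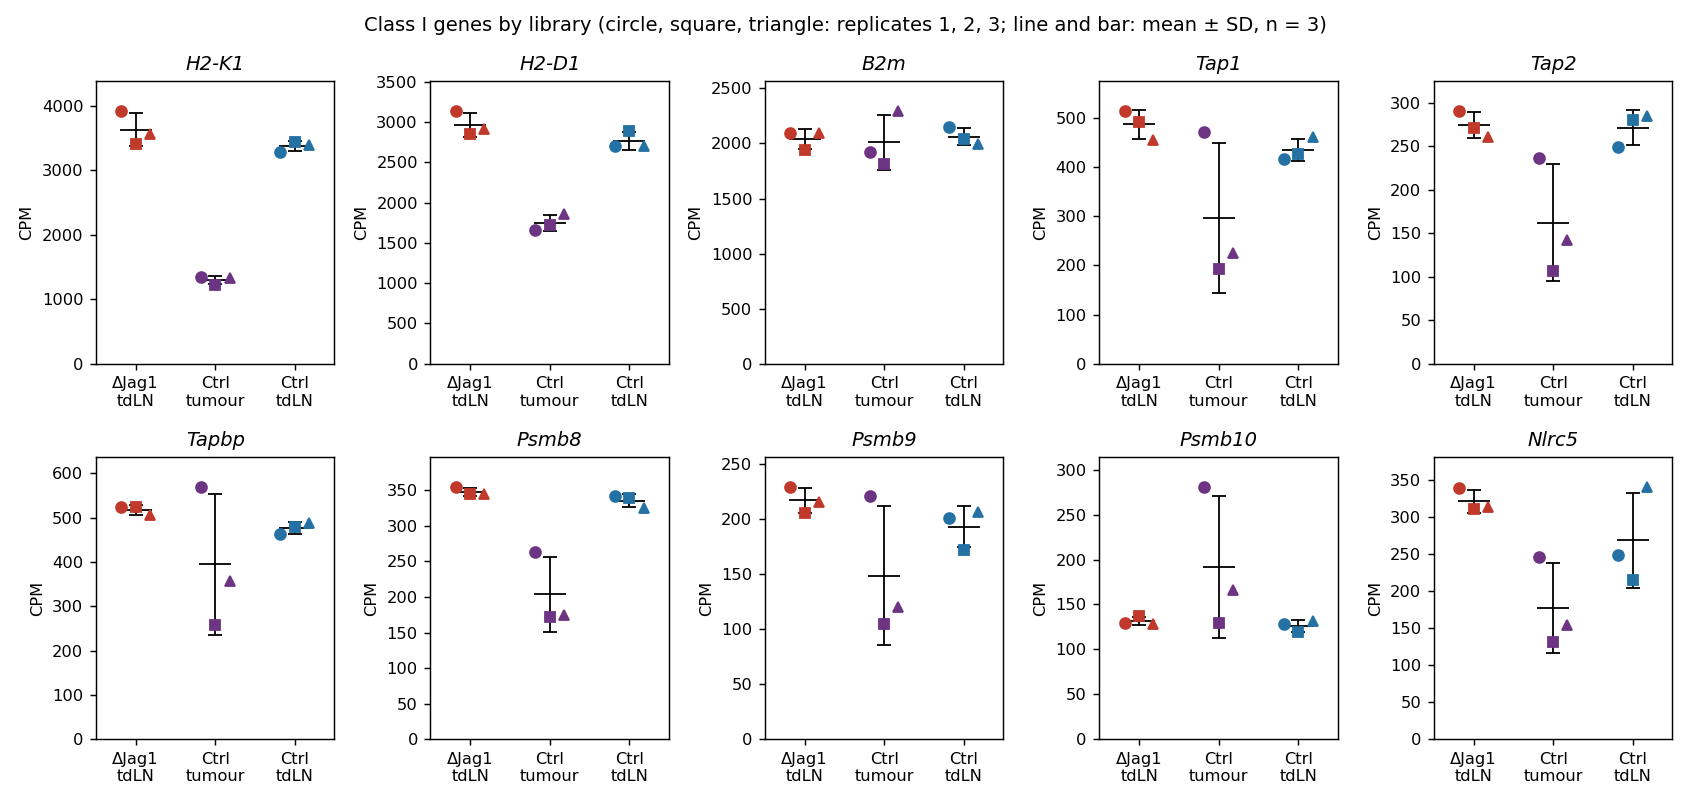
CPM of the 10 members in each library, with Foxp3ΔJag1 tdLN, Foxp3Ctrl tumour and Foxp3Ctrl tdLN from left to right in every panel. Circles, squares and triangles are replicates 1, 2 and 3, lines and bars the mean ± SD (n = 3). Node libraries lie close together for most genes, while for 8 genes tumour replicate 1 (circle) is the highest of the 3 tumours.

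The heavy chain and light chain transcripts were at similar levels in both genotypes. H2-K1 had 3910, 3402 and 3563 CPM in Foxp3ΔJag1 nodes, against 3280, 3431 and 3393 CPM in Foxp3Ctrl nodes. The ranges overlapped, with replicate 1 of Foxp3ΔJag1 the highest node (log2 fold change 0.08, 95% interval -0.11 to 0.27, edgeR adjusted p = 0.953). H2-D1 had 3134, 2849 and 2909 CPM in Foxp3ΔJag1 nodes, against 2704, 2889 and 2704 CPM in Foxp3Ctrl nodes, again overlapping (0.08, interval -0.11 to 0.26, edgeR adjusted p = 0.953). B2m had 2096, 1936 and 2096 CPM in Foxp3ΔJag1 nodes, against 2151, 2038 and 1999 CPM in Foxp3Ctrl nodes, and was one of the 2 members with a fold change below 0 (-0.04, interval -0.22 to 0.15, edgeR adjusted p = 0.968).

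The transporter and loading genes differed by little. Tap1 had 514, 493 and 456 CPM in Foxp3ΔJag1 nodes, against 417, 427 and 461 CPM in Foxp3Ctrl nodes (log2 fold change 0.14 ± 0.07 SE, edgeR adjusted p = 0.953). Only replicate 3 of the mutant nodes lay within the range of the controls. Tap2, its partner, had 290, 271 and 261 CPM in Foxp3ΔJag1 nodes, against 249, 280 and 285 CPM in Foxp3Ctrl nodes, with ranges that overlapped (-0.01 ± 0.08 SE, edgeR adjusted p = 0.994). The sign for Tap2 turned to 0.02 when only library size was used for scaling. Tapbp had 525, 524 and 505 CPM in Foxp3ΔJag1 nodes, against 463, 479 and 488 CPM in Foxp3Ctrl nodes. Tapbp and Psmb8 were the members whose CPM did not overlap, with all mutant nodes above all controls, as for 4.11% of all genes. For Tapbp the log2 fold change was 0.10 ± 0.07 (SE, edgeR adjusted p = 0.953). On TMM-scaled CPM, which adjust for library composition, the members with no overlap were Tap1, Tapbp and Psmb9, as for 3.77% of all genes.

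The immunoproteasome genes were close in both genotypes, while Nlrc5 varied among the control nodes. Psmb8 had 354, 344 and 345 CPM in Foxp3ΔJag1 nodes, against 342, 339 and 324 CPM in Foxp3Ctrl nodes (log2 fold change 0.03 ± 0.07 SE, edgeR adjusted p = 0.968). Psmb9 had 229, 206 and 216 CPM in Foxp3ΔJag1 nodes, against 201, 172 and 206 CPM in Foxp3Ctrl nodes (0.15 ± 0.08 SE, edgeR adjusted p = 0.953). Psmb10 had 130, 137 and 128 CPM in Foxp3ΔJag1 nodes, against 128, 119 and 132 CPM in Foxp3Ctrl nodes (0.04 ± 0.07 SE, edgeR adjusted p = 0.958). Nlrc5 had 339, 311 and 314 CPM in Foxp3ΔJag1 nodes, against 249, 216 and 341 CPM in Foxp3Ctrl nodes. Its ranges overlapped because control replicate 3 was the highest of all nodes, and its log2 fold change of 0.24 had an interval of -0.07 to 0.56 (edgeR adjusted p = 0.953). The coefficient of variation of Nlrc5 was 24.1% in control nodes, against a median of 4.59% over the members there. The Nlrc5 log2 fold change was 0.42 without Foxp3Ctrl replicate 3 and 0.12 without Foxp3Ctrl replicate 2, and it was called in none of the alternatives (lowest adjusted p 0.132).

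**Figure D2:**
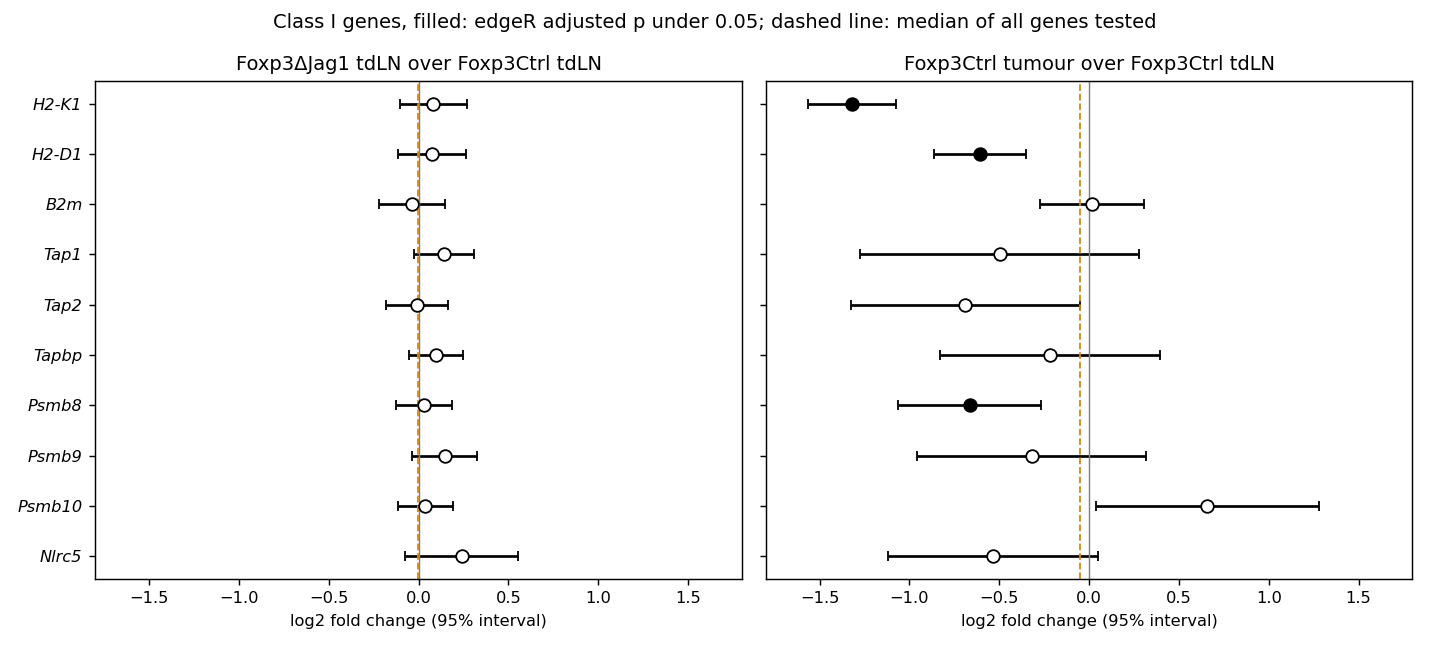
Log2 fold change of each member with its 95% interval in both comparisons, Foxp3ΔJag1 tdLN over Foxp3Ctrl tdLN on the left and Foxp3Ctrl tumour over Foxp3Ctrl tdLN on the right. Filled points passed an edgeR adjusted p of 0.05 and the dashed line is the median of all genes tested. No point is filled on the left, and H2-K1, H2-D1 and Psmb8 are filled on the right.

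The second comparison set control tumours against the draining nodes of the same control mice. H2-K1, H2-D1 and Psmb8 fell in tumours by the unpaired edgeR test and 0 members passed it as higher, while B2m had nearly the same level in both tissues. These 3 of 10 called members compare with 73.2% of 18566 genes called by edgeR, 37.6% lower and 35.6% higher. The median log2 fold change of the members was -0.52, against -0.05 over all genes tested. In bulk tissue, fewer cells of a type and less RNA per cell cannot be told apart, and the tumours differed from the nodes in leukocyte and melanoma markers as given above. The part of these cells in the results was not tested.

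H2-K1 had 1343, 1220 and 1330 CPM in Foxp3Ctrl tumours, against 3280, 3431 and 3393 CPM in Foxp3Ctrl nodes. Every tumour lay far below every node, and the log2 fold change was -1.32 ± 0.10 (SE, 0.400 of the node level, edgeR adjusted p = 1.49e-05). H2-D1 had 1663, 1725 and 1853 CPM in tumours, against 2704, 2889 and 2704 CPM in nodes, a smaller fall with no overlap (-0.61 ± 0.11 SE, edgeR adjusted p = 0.00139). B2m had 1925, 1810 and 2292 CPM in tumours, against 2151, 2038 and 1999 CPM in nodes, with tumour replicate 3 above all nodes and the other two tumours below them. Its log2 fold change was 0.02 with an interval of -0.27 to 0.31 (edgeR adjusted p = 0.911), and the sign turned to -0.04 with library size alone.

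Within a library the heavy chains were thus lower relative to the light chain in tumours. The ratio of H2-K1 plus H2-D1 to B2m, in counts per exon length, was 0.724, 0.748 and 0.639 in Foxp3Ctrl tumours, against 1.32, 1.47 and 1.46 in Foxp3Ctrl nodes. The ranges stood apart, with an exact permutation p of 0.1, the smallest that 3 against 3 libraries allow (0.267 adjusted over 8 ratio comparisons). The test took tumours and nodes as independent, although they come from the same mice. The level of the ratio depends on the exon lengths used, so whether it lies above or below 1 is not settled here. In Foxp3ΔJag1 nodes the ratio was 1.60, 1.53 and 1.47, overlapping the controls (exact permutation p = 0.2, adjusted 0.32). The ratio of H2-K1 to H2-D1, which was looked at after its values were seen and was not tested, was 1.05, 0.919 and 0.932 in tumours, against 1.57, 1.54 and 1.63 in control nodes. It was 1.62, 1.55 and 1.59 in Foxp3ΔJag1 nodes.

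The genes of peptide supply varied more among tumours. Psmb8 had 264, 172 and 175 CPM in tumours, against 342, 339 and 324 CPM in nodes, with all tumours below all nodes (log2 fold change -0.66 ± 0.17 SE, edgeR adjusted p = 0.00835). Tap2 had 237, 107 and 142 CPM in tumours, against 249, 280 and 285 CPM in nodes, also without overlap, and narrowly missed the threshold (-0.69 ± 0.27 SE, edgeR adjusted p = 0.0511). By CPM, 4 members (H2-K1, H2-D1, Tap2 and Psmb8) lay wholly below the nodes, as did 41.5% of all genes. Tap1 had 473, 193 and 225 CPM in tumours, against 417, 427 and 461 CPM in nodes, so that replicate 1 lay above all nodes and the other two tumours below them (-0.50 ± 0.33 SE, edgeR adjusted p = 0.206). Tapbp, with 569, 257 and 358 CPM in tumours, against 463, 479 and 488 CPM in nodes, had the same pattern (-0.22 ± 0.26 SE, edgeR adjusted p = 0.471).

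Psmb9 had 222, 105 and 120 CPM in tumours, against 201, 172 and 206 CPM in nodes, with tumour replicate 1 again above the nodes (log2 fold change -0.32 ± 0.27 SE, edgeR adjusted p = 0.313). Psmb10 stood against the other members, with 281, 129 and 166 CPM in tumours and 128, 119 and 132 CPM in nodes (0.66 ± 0.26 SE, edgeR adjusted p = 0.0554). It was called higher in tumours by DESeq2 (adjusted p = 0.0150), with DESeq2 size factors in edgeR (adjusted p = 0.0499) and in a joint edgeR fit of the 9 libraries (adjusted p = 0.0182). By CPM, tumour replicate 2 lay within the node range of Psmb10 and the other tumours lay above it. On TMM-scaled CPM all tumours lay above all nodes for Psmb10. Nlrc5 had 246, 131 and 155 CPM in tumours, against 249, 216 and 341 CPM in nodes, and overlapped (-0.54 ± 0.25 SE, edgeR adjusted p = 0.0871). DESeq2 called Tap2 and Nlrc5 lower in tumours, and limma-voom called Tap2 lower. In edgeR, Tap2 was called lower with DESeq2 size factors (adjusted p = 0.0433) and with library size only (adjusted p = 0.0439). It was also called with a filter at a CPM of 1 in 3 libraries (edgeR adjusted p = 0.0425) and in the joint fit (0.0306). With no filter on low counts Tap2 was not called (edgeR adjusted p = 0.126).

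With the shared mouse code as a replicate block, edgeR called 13375 of 18566 genes tested, among them 6 of the 10 members. Beside H2-K1, H2-D1 and Psmb8, these were Tap2 (log2 fold change -0.77, edgeR adjusted p = 0.0474) and Nlrc5 (-0.57, edgeR adjusted p = 0.0489), both lower, and Psmb10 (0.58, edgeR adjusted p = 0.0447), which was higher in tumours. Without tumour replicate 1, edgeR called 13212 of 19213 genes tested, 6823 of them lower. The 8 members called then were all lower, and B2m and Psmb10 were the exceptions. The added genes then had log2 fold changes of -0.98 for Tap1, -1.04 for Tap2, -0.55 for Tapbp, -0.70 for Psmb9 and -0.82 for Nlrc5, while Psmb10 was at 0.30. Without tumour replicate 2, edgeR called 13075 of 19286 genes tested, 6519 of them higher and 6556 lower. The members called then were H2-K1, H2-D1 and Psmb8, which were lower, and Psmb10, which was higher (0.90, edgeR adjusted p = 0.00741). These other members then lay nearer to 0, with log2 fold changes of -0.24 for Tap1, -0.44 for Tap2, 0.04 for Tapbp, -0.10 for Psmb9 and -0.34 for Nlrc5. Without tumour replicate 3 the values were -0.30 for Tap1, -0.12 for Tapbp and -0.16 for Psmb9. H2-K1, H2-D1 and Psmb8 were called in every alternative run.

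The control tumours thus differed among themselves in peptide supply more than in heavy chains. The median coefficient of variation of the members was 37.3% in tumours and 4.59% in control nodes, while that over all genes tested was 13.2% in tumours and 13.6% in control nodes. For 8 of 10 members, all but H2-D1 and B2m, replicate 1 was the highest tumour, replicate 3 the middle one and replicate 2 the lowest, an order held by 17.8% of all genes tested. Between the highest and the lowest tumour, Tap1 differed 2.45-fold, Tapbp and Tap2 2.21-fold each, and H2-K1 1.10-fold. The same order of tumours was held by 7 of 10 other loading and trimming genes and 6 of 17 non-classical heavy chain genes. It was held by 5 of 11 class I receptor genes and 2 of 7 constitutive proteasome and PA28 genes. Of the 20 listed regulators, 9 had the same order, among them interferon-pathway genes. Irf1, an interferon-induced activator of class I genes, had 463, 131 and 204 CPM in tumour replicates 1, 2 and 3, and Ifng, which encodes interferon gamma, 5.30, 1.03 and 2.46 CPM. All 6 leukocyte markers and all 6 macrophage and monocyte markers had this order too, with leukocyte sums of 458, 263 and 356 CPM and macrophage sums of 821, 455 and 654 CPM. T cell markers did not, with sums of 32.6, 35.1 and 48.3 CPM and the order in 0 of 8 genes, and melanoma markers summed to 17648, 18927 and 23066 CPM. Fibroblast markers summed to 4465, 2225 and 1550 CPM and were highest in replicate 1 for 5 of 6 genes. Keratinocyte markers (5.94, 1.95 and 1.06 CPM) and erythroid markers (90.5, 66.3 and 27.0 CPM) were highest there for all 5 genes tested in each list. B cell and dendritic cell markers were highest there for 5 of 7 genes each, as were 35.0% of all genes tested. The dendritic cell sum was itself highest in replicate 3 (46.5, 34.6 and 49.0 CPM). Replicate 1 was highest for 2 of 6 NK cell, 1 of 5 neutrophil, 3 of 7 endothelial, 3 of 6 adipocyte and 0 of 4 skeletal muscle markers. Sums were 19.7, 12.6 and 24.9 CPM for NK cell markers and 4.23, 4.59 and 275 CPM for skeletal muscle markers. The part of these cell types and of the interferon-pathway genes in the difference between tumours was not tested.

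**Figure D3:**
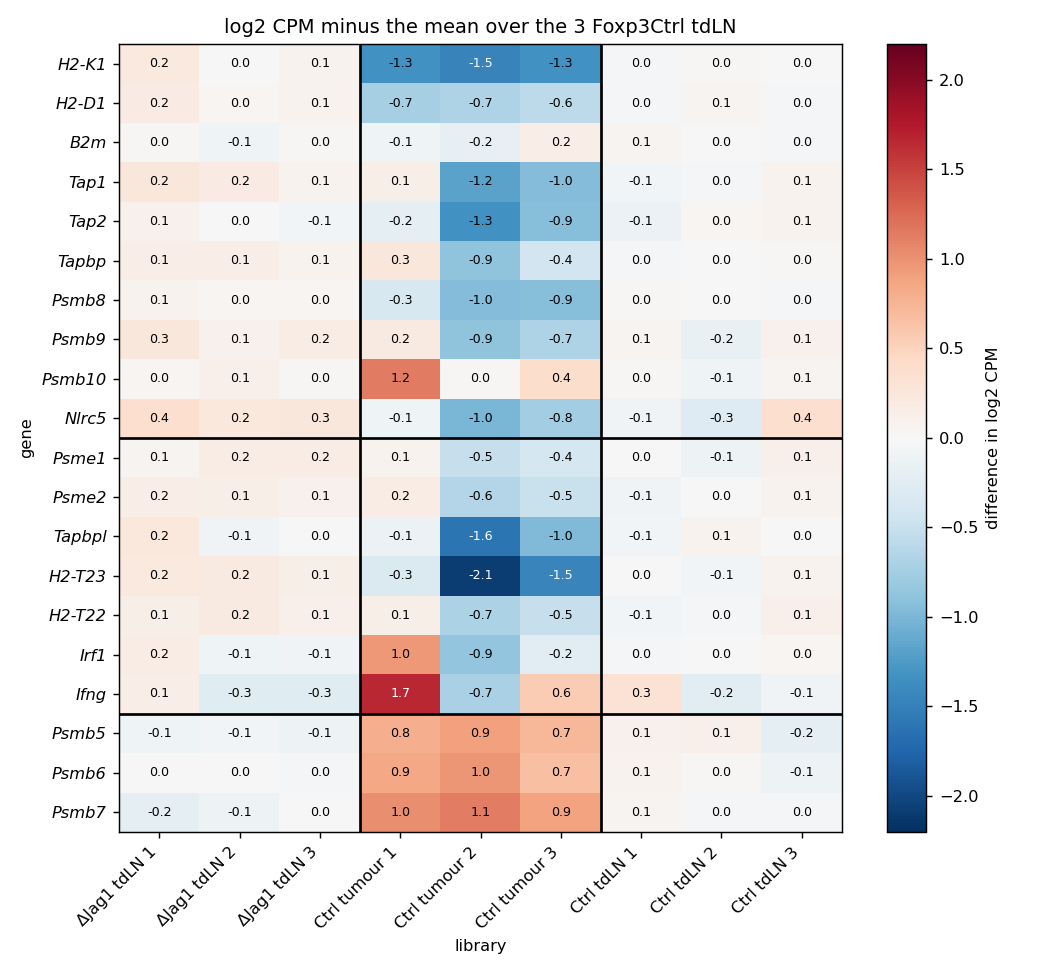
Difference in log2 CPM from the mean of the 3 Foxp3Ctrl tdLN for each library (columns) and gene (rows), in which red is higher and blue lower. The upper block holds the members, the middle one related and interferon-pathway genes, and the lower one the constitutive subunits Psmb5, Psmb6 and Psmb7. Tumours 2 and 3 are blue for most members except B2m and Psmb10, tumour 1 is blue mainly for H2-K1 and H2-D1, and the constitutive subunits are red in all tumours.

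The immunoproteasome subunits were also set against the constitutive subunits they replace, as ratios of counts per exon length within each library. Psmb8 to Psmb5 was 1.28, 0.773 and 0.889 in Foxp3Ctrl tumours, against 2.71, 2.65 and 3.14 in Foxp3Ctrl nodes, with every tumour below every node (exact permutation p = 0.1, adjusted 0.267). Psmb9 to Psmb6 was 0.831, 0.364 and 0.517 in tumours, against 1.30, 1.14 and 1.5 in nodes, also apart (exact permutation p = 0.1, adjusted 0.267). Psmb10 to Psmb7 was 1.57, 0.668 and 1.02 in tumours, against 1.39, 1.37 and 1.55 in nodes, where tumour replicate 1 lay above all nodes (exact permutation p = 0.4). In Foxp3ΔJag1 nodes the ratios were 3.20, 3.01 and 3.13 for Psmb8 to Psmb5, 1.57, 1.39 and 1.49 for Psmb9 to Psmb6, and 1.69, 1.67 and 1.45 for Psmb10 to Psmb7. All overlapped the control nodes, with exact permutation p of 0.3, 0.3 and 0.2. The constitutive genes themselves rose in tumours, Psmb5 to 114, 123 and 109 CPM in tumours, against 69.5, 70.6 and 57.1 CPM in nodes (log2 fold change 0.86 ± 0.13 SE, edgeR adjusted p = 0.00049), with Psmb6 at 0.88 and Psmb7 at 1.07.

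**Figure D4:**
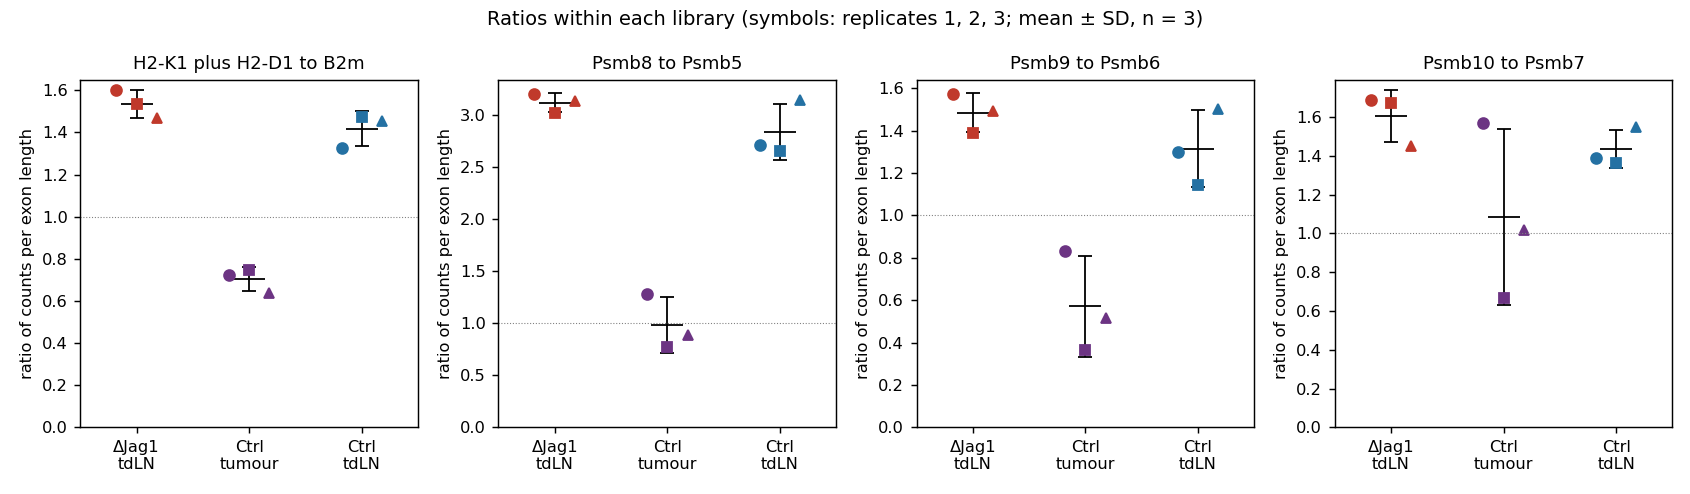
Ratios of counts per exon length within each library for heavy chains to B2m and for each immunoproteasome subunit to its constitutive partner, with Foxp3ΔJag1 tdLN, Foxp3Ctrl tumour and Foxp3Ctrl tdLN from left to right. Symbols are replicates, lines and bars the mean ± SD (n = 3), and the dotted line is a ratio of 1. Levels relative to that line depend on the exon lengths used. Tumours lie below nodes without overlap in all panels but that of Psmb10.

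Other genes of the class I pathway, taken from lists chosen by function, had 0 genes called in any list between Foxp3ΔJag1 and Foxp3Ctrl nodes. Over all genes, 0.038% were called there. Log2 fold changes lay above 0 for 12 of 17 non-classical genes (median 0.13), against 48.8% of all genes. They did for 7 of 11 receptor, 6 of 20 regulator, 2 of 10 loading and trimming, and 2 of 7 constitutive and PA28 genes. Non-classical H2-T10 and H2-T23 had unadjusted edgeR p of 0.0439 and 0.0446, and 3.15% of all genes lay under 0.05. Between tumours and control nodes the lists moved in different directions. Over all genes tested, edgeR called 35.6% higher and 37.6% lower there. Of 7 constitutive proteasome and PA28 genes, 5 rose and 0 fell, and the 2 not called were the interferon-induced PA28 genes Psme1 (log2 fold change -0.19) and Psme2 (-0.22). Of 10 other loading and trimming genes, 6 rose and 1 fell. Canx, the chaperone calnexin, rose by 1.63 on the log2 scale, with 1062, 911 and 1030 CPM in tumours, against 371, 315 and 319 CPM in nodes, and Calr (calreticulin), Pdia3 (ERp57), Hspa5, Sec61a1 and Ide rose by 0.67 to 1.29. Lnpep, a peptide-trimming aminopeptidase, fell by 1.71, and Tapbpl, the tapasin-related editor, had a log2 fold change of -0.73 (edgeR adjusted p = 0.0984).

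Among 17 non-classical heavy chain genes tested of 18 listed, 11 fell and 2 rose, beside 37.6% and 35.6% of all genes tested. H2-Q6 and H2-Q7, which encode Qa-2 antigens, fell, with log2 fold changes of -4.00 and -3.88. H2-Q7 had 50.5, 40.3 and 53.1 CPM in tumours, against 689, 635 and 890 CPM in nodes, and the counts of these near-identical genes are uncertain. H2-M3, which presents formylated peptides and shares the spaced promoter motifs above, fell by 2.34, with 21.8, 14.0 and 14.6 CPM in tumours, against 92.2, 79.2 and 94.1 CPM in nodes. Mr1, which presents vitamin metabolites, and Hfe, a regulator of iron uptake, rose by 0.91 and 0.88. H2-T23, which encodes Qa-1, had 434, 127 and 197 CPM in tumours, against 534, 518 and 569 CPM in nodes, and missed the threshold (edgeR adjusted p = 0.0663).

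Of 20 regulators, 11 fell, 2 rose and 7 were not called. Among all genes tested, 37.6% were called lower and 35.6% higher. Jak1 fell by 2.39, Nfkb1 by 2.16 and Rfx5, a subunit of the complex through which Nlrc5 acts, by 1.76 on the log2 scale. The Polycomb genes Ezh2 and Suz12, known as repressors of class I genes in some tumours, rose by 1.09 and 0.43, while Eed, which belongs to the same Polycomb complex, fell by 0.64 on the log2 scale. Irf1 (0.21) and Ifng (0.84) were not called. All 11 receptor genes tested fell, among them Cd8a, the class I coreceptor of T cells, with 6.58, 8.69 and 13.7 CPM in tumours, against 221, 213 and 311 CPM in nodes. Klrd1 (CD94), the partner of the NK receptors that read H2-T23, fell by 3.42 on the log2 scale. Lymphocyte markers moved with these receptors, with all 8 T cell and all 6 NK cell markers called lower in tumours, where T cell sums were 32.6 to 48.3 CPM, against 1160 to 1476 CPM in control nodes, and none at 0. Their part in the result was not tested.

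**Figure D5:**
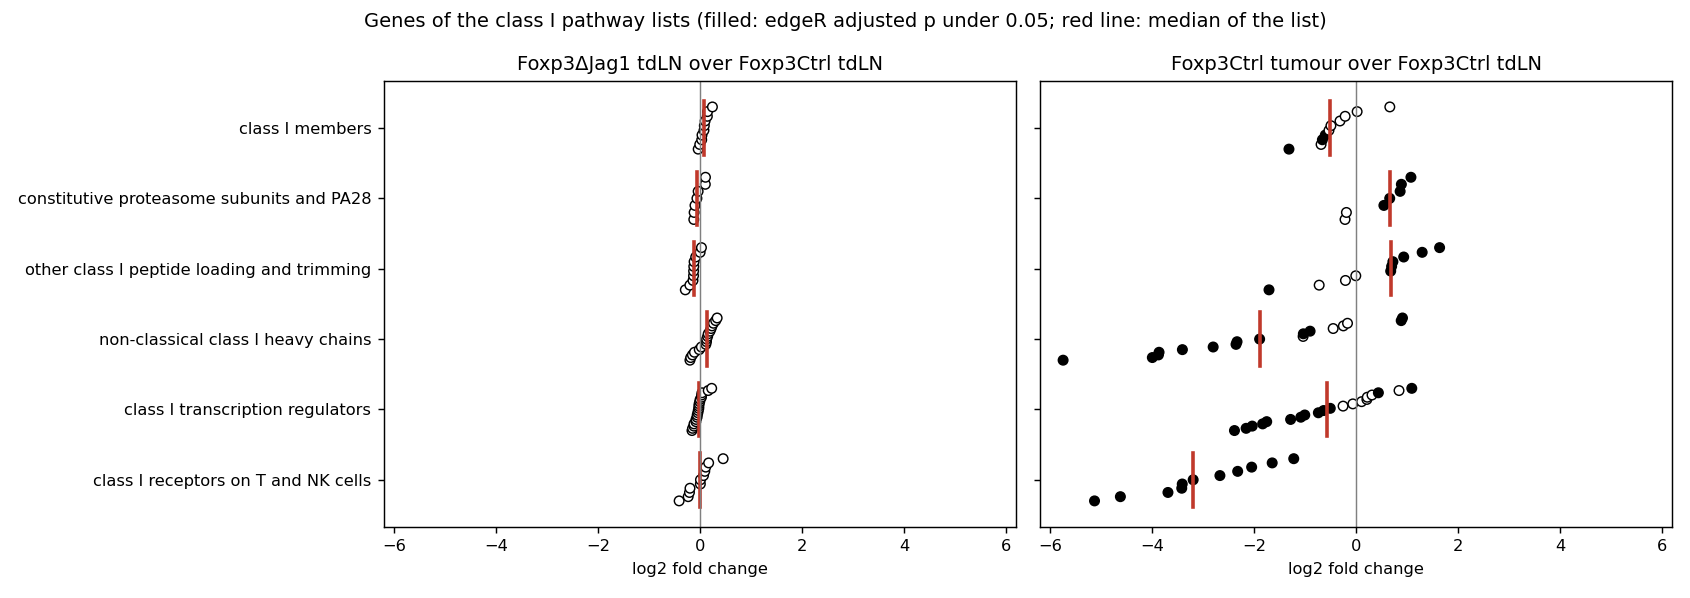
Log2 fold change of every tested gene of the class I pathway lists, for Foxp3ΔJag1 tdLN over Foxp3Ctrl tdLN on the left and Foxp3Ctrl tumour over Foxp3Ctrl tdLN on the right. Filled points passed an edgeR adjusted p of 0.05 and red lines are list medians. On the left every point is open and close to 0, while on the right the constitutive and loading lists lie mostly above 0 and the non-classical and receptor lists mostly below.

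Over the 9 libraries, the genes nearest to the mean pattern of the members were sought among 14272 protein-coding genes by the root mean square difference of centred log2 CPM. The nearest were Idnk at 0.078, H2-T22, a non-classical heavy chain, at 0.0893, Mvp, the major vault protein, at 0.0993, Psme2, a PA28 subunit, at 0.103, and Cwf19l2 at 0.106. The members themselves lay between 0.116 for Psmb9 and 0.515 for Psmb10. H2-K1 at 0.432 and B2m at 0.327 were next farthest from the mean of the members, which is the mean of unlike profiles.

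Parts of some members' exons lie over other genes, and the strand setting of the counts is not given in the sources used here. Tap1 and Psmb9 share 212 exon bases on opposite strands, and 29.0% of Tapbp, 18.5% of Tap2, 14.7% of Psmb8 and 0.918% of Nlrc5 exon bases overlap other annotated genes, such as Zbtb22 for Tapbp. Reads from these stretches cannot be assigned with certainty. H2-K1, H2-D1, B2m and Psmb10 share no exon bases with another gene. The split of reads between H2-K1, H2-D1 and other H2 genes of like sequence stays uncertain, as given above.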

How the data were processed

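The authors deposited raw gene counts in 2 tables. The submitters' processing notes list GRCm38, featureCounts (Subread 1.5.2), STAR 2.5.2b and Trimmomatic 0.36, without their roles. The strand and multi-mapping settings, and whether libraries were poly(A)-selected or depleted of ribosomal RNA, are unknown here. The labels name 13 samples, of which 9 libraries were used. A further 3 columns match no labelled sample and were not used, and the 4 Foxp3ΔJag1 tumours were not analysed here. Of the identifiers, 48970 matched GENCODE M21. No library was a repeat of another.

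Differences were tested by edgeR 4.0.16 (R 4.3.3; quasi-likelihood, TMM, filterByExpr, robust dispersions, Benjamini-Hochberg over all genes, FDR 0.05), fitted per comparison and tested on simulated data. Intervals are 95%. CPM use total counts. Within-library ratios were tested with exact 2-sided permutation tests that took all libraries as independent. No paired test of the ratios was run. Alternatives were DESeq2 1.42.0, limma-voom 3.58.1, other scalings, filters and lengths, a joint fit, a replicate block and leaving out each library. The length alternative was added after seeing the data. The members, lists and the rule for named genes (all members, Jag1, Foxp3, listed genes and the 5 nearest in pattern) were chosen with earlier results of these data known. Control nodes and tumours of one number come from the same mouse by library name, and their deviations from the group means correlated at -0.048, 0.134 and 0.039. Values of a further listed regulator, not named in the text, are not reported here. Lilrb4a matched no identifier and H2-T3 did not pass the filter. Promoter windows are from RefSeq.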

Additional observations from a re-analysis of the deposited data

How the results depend on the processing

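Across the alternatives, 0 members were called between genotypes, while the count of all genes called there, 7 as reported, was 16 with no filter on low counts, 44 with DESeq2, 11 with the replicate block and 6 to 21 with each library left out (21 without Foxp3Ctrl replicate 3, 16 without Foxp3ΔJag1 replicate 2). The replicate numbers only name the nodes of different genotypes, whose same-numbered deviations correlated at -0.175, 0.043 and -0.147. Between tumours and nodes, the count of members called, 3 as reported, was 5 with DESeq2 size factors, 6 with DESeq2, 5 in the joint fit, 6 with the replicate block and 3 to 8 with each library left out. All genes called there were 13583 of 18566 as reported, 13544 with DESeq2 size factors, 13443 with DESeq2 and 13375 with the block. They were 14743 of 19541 in the joint fit and 12791 to 13387, of 18995 to 19334 genes tested, with each library left out. Counted once per member and alternative, 19 values passed for members not called as reported, always in their reported direction. The sign turned for values near 0. Between genotypes, the log2 fold change of Tap2 was 0.0151 with library size only, 0.00515 with a filter at a CPM of 1 in 3 libraries, and -0.0656 to 0.0385 with each library left out. The ranges with each library left out were -0.00047 to 0.0685 for Psmb10, below 0 without Foxp3ΔJag1 replicate 2, and -0.0133 to 0.055 for Psmb8, below 0 without Foxp3Ctrl replicate 3. Between tissues, B2m was -0.038 with library size only, -0.0205 with the CPM filter and -0.0539 to 0.116 with each library left out, below 0 without tumour replicate 3 or Foxp3Ctrl node replicate 3. Tapbp was -0.553 to 0.0404 with each library left out, above 0 without tumour replicate 2. The cause was not tested. All 8 ratio differences kept their sign under every alternative. With 3 libraries a group, exact tests of ratios cannot pass 0.05, and depth limited no member.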
